A study of Mus musculus with 10 samples.

Results

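The coagulation and plasminogen system of mouse adipocyte precursors (APs) was followed through 10 genes of the 18384 listed in the mRNA-seq data, namely F3, F7, F10, F13a1, Plau, Plaur, Plat, Thbd, Procr and Tfpi. Their rows were read by gene symbol, but the group was chosen with earlier results of these data known. All 10 were listed and passed the filter on low counts, F7 and F10 only through the IL-4 libraries. With IL-4, the genes of coagulation factors VII and X went from under 10 reads per library to 598 reads or more. The genes of both plasminogen activators and of the urokinase receptor rose by less than 2-fold. The rise of the receptor gene did not pass the test with scaling by library totals. Tissue factor, by far the most abundant of the 10 transcripts, did not pass the test.

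The study asked how the type 2 cytokine IL-4 changes gene expression in APs, the progenitor cells of fat. APs came from subcutaneous white adipose tissue of C57BL/6J mice and were selected with magnetic beads, first against CD45 (leukocytes) and CD31 (endothelium) and then for SCA-1. The 3 control libraries came from APs grown in medium alone, and the 3 IL-4 libraries came from APs of the same kind that were given IL-4 one day after seeding and harvested after 4 days of incubation. Both groups share the tissue, the strain, the selection and the growth medium with serum, and the age of the mice, the dose of IL-4 and whether libraries came from separate isolations are not given in the sources used here. The p-values therefore measure only the spread between these libraries, which may be technical.

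Clotting starts when tissue factor, a receptor in the cell membrane, binds factor VII from plasma and the complex cleaves factor X. Active factor X with its cofactor, factor V, makes thrombin, which cuts fibrinogen to fibrin, and factor XIII crosslinks the fibrin. Tissue factor pathway inhibitor stops the first step, while thrombomodulin and the endothelial protein C receptor turn thrombin towards activating the anticoagulant protein C. The fibrin is removed by plasmin, which urokinase and tissue plasminogen activator release from plasminogen, and fibroblast-like cells are known to use urokinase on its receptor for proteolysis of the matrix around them. Factors VII and X are made chiefly in the liver and are also known from macrophages.

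The libraries were of even depth, with 28526782 to 28674604 expected counts in the controls and 28914003 to 29057787 with IL-4. An expected count is the number of reads assigned to a gene, and all 60 values of the 10 genes were whole numbers at the 2 decimals of the deposited files. The 10 most abundant genes of a library held 9.14% to 9.59% of the counts in controls and 13.8% to 15.5% with IL-4. Scaling by the trimmed mean of M values (TMM) and by library totals placed the middle of all genes differently. The median log2 fold change of the 14009 genes tested was 0.0026 with TMM and -0.17 with library totals, and 50.8% or 25.6% of the called genes were higher with IL-4, respectively. Of the AP markers, Pdgfra was at 53.4 to 57.2 FPKM in controls and 59.5 to 77.4 with IL-4. Col1a1 and Ly6a, which encodes SCA-1, were also present in all libraries, but Dpp4 was low, at 0.22 to 0.4 FPKM. Pi16 was at 0.76 to 0.8 FPKM in controls and 10.23 to 13.07 with IL-4, and Cd34 at 3.03 to 3.8 and 27.87 to 32.32. In all, 13 AP markers were tested, of which 9 were higher and 2, Pdgfrb and Lum, were lower with IL-4 (19.0% and 18.4% of all genes). The 8 lymphocyte markers summed to at most 0.15 FPKM. The 5 mesothelial markers went different ways and summed to 6.38 to 7.32 FPKM in controls and 9.75 to 11.38 with IL-4. Most of that sum was Krt19, at 5.99 to 6.86 and 8.77 to 10.42 FPKM. Krt19 and Wt1, the 2 that were tested, were higher (19.0% of all genes). The untested Msln was read 13, 10 and 7 times in controls and 0, 4 and 3 times with IL-4. Upk3b and Lrrn4 were read at most 3 times in a library. Macrophage markers were present too, since Ptprc, which encodes CD45, was at 16.95 to 19.0 FPKM in controls and at 8.0 to 8.48 with IL-4, and the 19 macrophage markers summed to 4917 to 6409 FPKM in controls and to 2042 to 2738 with IL-4.

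Levels are given as FPKM, fragments scaled by transcript length and library total, which can be compared between genes. In control APs the order of the medians ran from F3 at 484.14 FPKM through Plau at 55.64, Plat at 36.36, Tfpi at 35.39, Plaur at 18.31, F13a1 at 8.85, Thbd at 8.02 and Procr at 7.12 to F7 at 0.15 and F10 at 0.04. Neighbours in this order were separated in every library except for the pairs F13a1 and Thbd and F7 and F10, whose ranges overlapped. F3 alone held 72.9% to 74.64% of the summed FPKM of the 10 genes in controls. With IL-4 its share was 66.29% to 67.9%, and F7 and F10, at medians of 12.43 and 10.99 FPKM, stood above Thbd, F13a1 and Procr. The ranges of F7 and F10 overlapped again, as did those of F13a1 and Procr.

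**Figure D1:**
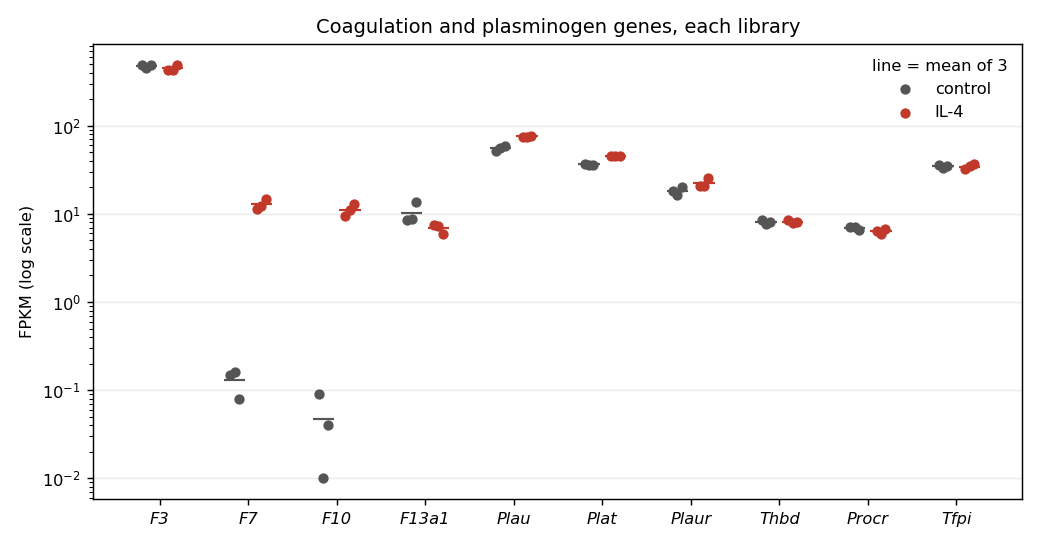
FPKM (log axis) of the 10 coagulation and plasminogen system genes in each of 3 control (grey) and 3 IL-4 (red) libraries, with a line at each group mean. F7 and F10 lie at or below 0.16 FPKM in the controls and at or above 9.56 FPKM with IL-4, while F3 lies between 428.35 and 494.16 FPKM in all libraries.

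Of the 10 genes, 5 were higher with IL-4 and 0 were lower at an adjusted p under 0.05 (quasi-likelihood test of edgeR, with p-values adjusted by Benjamini-Hochberg over the whole table, called the edgeR adjusted p from here on). Across all genes, 19.0% were called higher and 18.4% lower by the same rule. Beyond 2-fold, 2 of the 10 genes were higher and 0 were lower, beside 5.77% and 5.26% of all genes. Those 2, F7 and F10, passed the filter on low counts only through the IL-4 libraries. Such passing favours a rise, so the count is no test of the group. No member was lower at an unadjusted p under 0.05 or with DESeq2 either, whereas library totals called 1 lower, F13a1, and 4 higher, beside 35.4% of all genes lower and 12.2% higher with that scaling. The median log2 fold change of the 10 genes was 0.32, beside 0.0026 over all genes.

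F7 (Entrez gene 14068, chromosome 8 from 13025506 to 13035809 of mm10) encodes coagulation factor VII, the protease that tissue factor activates and holds at the membrane. It was read 8, 8 and 4 times in control libraries 1 to 3 and 598, 651 and 785 times in IL-4 libraries 4 to 6. Every IL-4 library was far above every control library, and the gene was near the limit of detection in the controls. The level went from 0.13 ± 0.044 FPKM to 12.93 ± 1.78 FPKM (SD, n = 3 each), and the log2 fold change was 6.79 (standard error, SE, 0.20, edgeR adjusted p = 2.295e-07). Over the summed reads, 20 against 2034, the scaled ratio was 113.2 with a 95% interval of 73.08 to 185.7, which covers counting error only.

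F10 (Entrez gene 14058, chromosome 8 from 13037308 to 13056676) encodes coagulation factor X, the substrate of the tissue factor and factor VII complex. Control libraries 1 to 3 held 6, 1 and 3 reads of it, and IL-4 libraries 4 to 6 held 725, 833 and 992. As for F7, the groups were widely separated and the IL-4 libraries were in the same order. The level was 0.047 ± 0.040 FPKM in controls and 11.19 ± 1.74 FPKM with IL-4 (SD, n = 3 each). The scaled ratio of summed reads, 10 against 2550, was 283.7 with a counting interval of 154.0 to 592.4, and the log2 fold change of 8.09 had a SE of 0.26 (edgeR adjusted p = 3.395e-07). The low control counts make the fitted value depend on the scale, and limma on log2(FPKM + 1) gave 3.62 for F7 and 3.53 for F10.

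Liver markers were low in the libraries that held F7 and F10. The hepatocyte markers Alb, Apoa1, Ttr and Serpina1a were not listed in any library, and Apoh was read at most 4 times in a library. Ambp was read 45, 51 and 79 times in controls and 3, 1 and 1 times with IL-4, opposite to F7 and F10 (log2 fold change -4.88, edgeR adjusted p = 9.355e-05). Of the 19 macrophage markers tested, 17 were lower with IL-4 and 1, Mrc1, was higher (18.4% and 19.0% of all genes). The log2 fold change of Mrc1 was 0.82 (edgeR adjusted p = 0.0004663). The part of liver-type cells or of macrophages in the levels of F7 and F10 was not tested. In such bulk libraries fewer cells of a type and less RNA per cell cannot be told apart.

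The 2 annotated F10 transcripts share both ends and differ in length, one of 2693 bases with 1482 coding bases and one of 2503 with 1446. The mean transcript length that the deposited files give for a gene moves with the share of each transcript. By this length, 98.84%, 94.35% and 94.29% of F10 in IL-4 libraries 4 to 6 was assigned to the longer transcript. The control files gave the length of the shorter transcript, but on 6, 1 and 3 reads, which is too few for a share.

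F7 and F10 lie in tandem on chromosome 8, with 1498 bases between them. Among the 8 protein-coding genes in a window of 150 kb on either side, which was set after the values had been seen and includes the pair, Mcf2l and Proz on either side were also higher with IL-4. Mcf2l, a gene of a guanine nucleotide exchange factor that ends 5003 bases before F7, was read 48, 46 and 62 times in controls and 298, 273 and 308 times with IL-4, without overlap (log2 fold change 2.65, SE 0.13, edgeR adjusted p = 2.464e-06). Proz, which encodes the anticoagulant cofactor protein Z and starts 3907 bases after F10, was read 9, 8 and 8 times in controls and 19, 16 and 20 times with IL-4 (log2 fold change 1.28, edgeR adjusted p = 0.005211). Its end overlaps that of Pcid2, and whether counting used strand is not given in the sources used here.

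Further along, the log2 fold changes were small. Pcid2 was at 0.08, Cul4a at 0.16 and Grtp1 at 0.02, none of which passed the test, and Lamp1, a lysosomal membrane protein gene, rose by 0.39 (edgeR adjusted p = 0.001433). For the other members, the nearest protein-coding genes moved both ways. Counting those of F7 and F10 too, the 10 genes have 18 neighbours that are not members themselves, and 14 were tested. Of these, 3 were higher beyond 2-fold (Mcf2l, Proz and Calcrl next to Tfpi), where 5.77% of all genes were. Another 2 were lower beyond 2-fold (Cd93 next to Thbd and Ly86 next to F13a1), where 5.26% of all genes were.

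**Figure D2:**
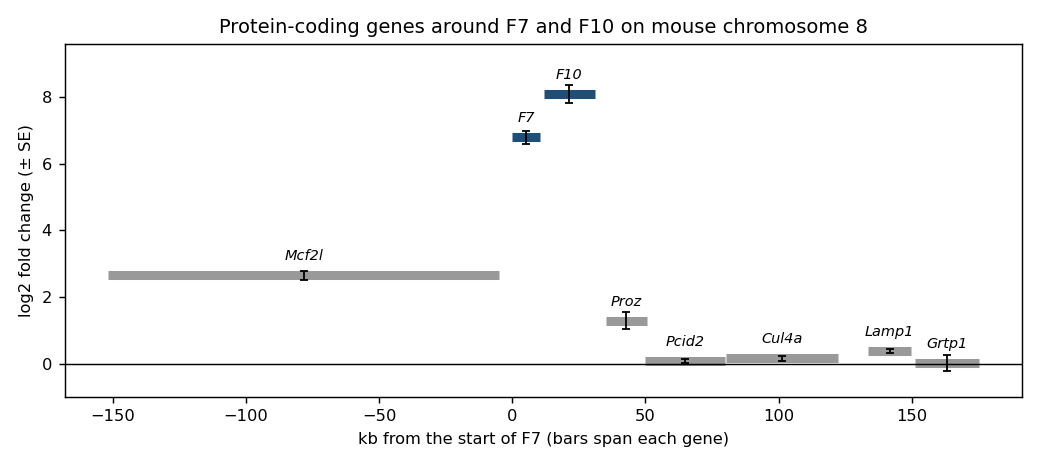
Log2 fold change with IL-4 (vertical axis, error bars are standard errors) of the protein-coding genes within 150 kb of F7 and F10 against distance in kb from the start of F7, each bar spanning a gene. F7 and F10 (blue) stand at 6.79 and 8.09, Mcf2l at 2.65 and Proz at 1.28 flank them, and the more distant genes lie between 0.02 and 0.39.

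The genes whose levels ran most like those of F7 and F10 over the 6 libraries, by Pearson's r of log2(normalized count + 0.5) among 11419 genes, were named as a description only. For F10 they were Serpina3h at 0.99989, Galm at 0.99963 and Cd248 at 0.99953, and F7 came at rank 381 with 0.98383. For F7 they were Tusc5 at 0.99924, Rab27a at 0.99921 and Ccdc3 at 0.99906, with F10 at rank 485. The 6 points fall into the 2 groups and share depth and scaling, so any gene with a steady change comes close to 1. Serpina3h belongs to a family of near-identical genes whose reads are hard to assign.

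To show what stands before these genes, the 250 bases upstream of a RefSeq transcript start on GRCm38.p6 (the assembly of mm10) are printed for the tandem pair, for F3 as the most abundant member and for Plaur as a called member of the plasminogen system. The windows are F7 at chr8:13025784-13026033, F10 at chr8:13037058-13037307, F3 at chr3:121723287-121723536 and Plaur at chr7:24462233-24462482, all on the plus strand. For F7 and Plaur, the annotated gene begins upstream of the window shown, at another start. Capitals mark matches on either strand to the searched patterns other than that of NF-kappaB.
F7: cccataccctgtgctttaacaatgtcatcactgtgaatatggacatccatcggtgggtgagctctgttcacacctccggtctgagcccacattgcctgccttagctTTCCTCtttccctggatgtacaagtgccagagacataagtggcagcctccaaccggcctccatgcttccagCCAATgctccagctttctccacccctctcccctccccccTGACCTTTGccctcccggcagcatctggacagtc
F10: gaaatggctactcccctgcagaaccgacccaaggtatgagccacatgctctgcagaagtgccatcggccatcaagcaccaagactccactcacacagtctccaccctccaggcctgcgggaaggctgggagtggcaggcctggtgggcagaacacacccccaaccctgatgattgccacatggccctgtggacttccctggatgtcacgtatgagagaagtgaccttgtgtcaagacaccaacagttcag
F3: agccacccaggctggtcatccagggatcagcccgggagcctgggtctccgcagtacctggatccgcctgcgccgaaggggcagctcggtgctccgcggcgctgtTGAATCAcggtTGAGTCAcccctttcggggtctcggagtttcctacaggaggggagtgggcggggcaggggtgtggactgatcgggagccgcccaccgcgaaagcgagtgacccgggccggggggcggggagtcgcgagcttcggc
Plaur: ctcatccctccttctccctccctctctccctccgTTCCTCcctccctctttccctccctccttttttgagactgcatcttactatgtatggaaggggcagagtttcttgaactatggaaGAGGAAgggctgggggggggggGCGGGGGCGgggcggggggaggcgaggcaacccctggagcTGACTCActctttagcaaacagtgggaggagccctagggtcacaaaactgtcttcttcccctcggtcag

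RefSeq gave 9 such windows for 7 of the 10 genes, and Plau, Plat and Thbd were not matched. Of 9 patterns searched, the STAT6 palindrome TTCNNNNGAA was found in 5.85% of all 32851 windows and in 1 window of a member, 13 to 4 bases before a start of Tfpi. It was not found in the windows of F7 and F10, nor was the shorter STAT palindrome TTCNNNGAA, which 7.02% of all windows hold. The F7 window held TTCCTC, the reverse complement of the PU.1 core GAGGAA (23.3% of all windows), then CCAAT (33.8%), and TGACCTTTG at -34 to -26, a match to the HNF4 repeat core CAAAGNNCA (5.49%). In the F10 window only the loose NF-kappaB pattern GGGNNNNNCC matched, as in 45.8% of all windows. The 2 neighbouring windows thus had no searched pattern in common.

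The AP-1 pattern TGANTCA, which 6.75% of all windows hold, lay at -146 and -135 before F3, at -69 before Plaur and at -154 before Procr. Plaur also held the EGR1 pattern GCGNGGGCG (4.7% of all windows) and the PU.1 core at -216 and at -131. The TATA box TATAAA (12.4%) was found only before a start of Tfpi among these windows. The windows of F3, with 70.0% of G and C, and Plaur, with 59.6%, were above the median of all windows, 52.4%, and so were those of F7 with 56.4% and F10 with 57.6%. These matches are letters in a window and say nothing about binding.

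F3 (Entrez gene 14066, chromosome 3 from 121723537 to 121735052) encodes tissue factor, which starts coagulation. It was read 25414, 23592 and 25114 times in control libraries 1 to 3 and 22390, 22807 and 26023 times in IL-4 libraries 4 to 6. The groups overlapped, and IL-4 library 6 was the highest of all. In normalized counts, which are scaled to a common library size by TMM, F3 was at 23452 ± 765 in controls and 25057 ± 1581 with IL-4 (SD, n = 3 each). The log2 fold change of 0.10 (SE 0.07, edgeR adjusted p = 0.3117) did not pass, and it was -0.08 with library totals.

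Tfpi (Entrez gene 21788, chromosome 2 from 84432855 to 84476775) encodes tissue factor pathway inhibitor, which blocks active factor X and the tissue factor complex. Its FPKM were 35.54, 33.36 and 35.39 in controls and 32.13, 34.76 and 36.64 with IL-4, and these ranges overlapped. After TMM scaling the groups came just apart, at 1985 ± 59 and 2177 ± 68 normalized counts (SD, n = 3 each). The log2 fold change was 0.13 (SE 0.06, edgeR adjusted p = 0.1056), and -0.04 with library totals. The F3 transcript was thus the more abundant of the pair in every library.

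The ratio of F3 to Tfpi FPKM within a library needs no scaling between libraries. It was 13.84, 13.7 and 13.68 in controls and 13.33, 12.52 and 13.49 with IL-4. The log2 ratio was 3.78 ± 0.009 in controls and 3.71 ± 0.058 with IL-4 (SD, n = 3 each), a difference of -0.07. The groups did not overlap, and the two-sided exact permutation test gave p = 0.1, the smallest value that 3 against 3 libraries allow. The separation rested on the FPKM, since the same ratio of expected counts was 11.88, 11.8 and 11.77 in controls and 11.41, 10.94 and 12.18 with IL-4, which overlapped (difference of log2 ratios -0.04, exact permutation p = 0.5). Without IL-4 library 5 the FPKM difference was -0.04 as well. Tfpi transcripts have alternative 3′ ends, and by the mean transcript length 44.0% to 45.4% of Tfpi in controls was assigned to the transcripts with the nearer end, against 37.67% to 45.8% with IL-4, ranges that overlapped.

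**Figure D3:**
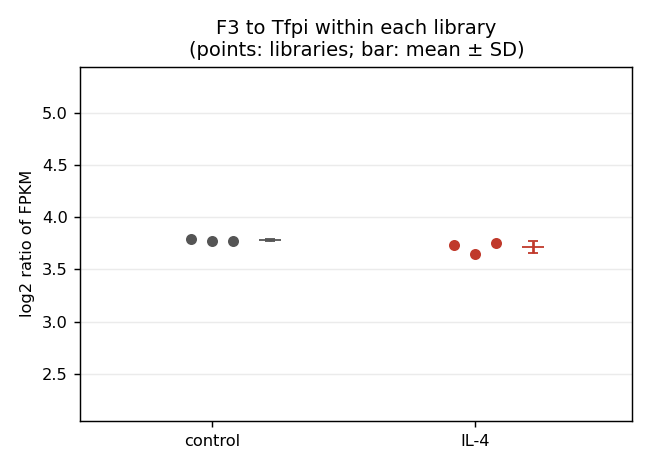
Log2 ratio of F3 to Tfpi FPKM within each library (vertical axis), with the mean and SD of 3 control (grey) and 3 IL-4 (red) libraries beside the points. The means are 3.78 and 3.71, and the lowest point is an IL-4 library.

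Thbd (Entrez gene 21824, chromosome 2 from 148404471 to 148408188) encodes thrombomodulin, the membrane cofactor that redirects thrombin. It was at 8.48, 7.67 and 8.02 FPKM in controls and at 8.63, 7.96 and 8.0 FPKM with IL-4. In normalized counts the groups did not overlap, with 799 ± 39 and 917 ± 51 (SD, n = 3 each), but in FPKM they did. The log2 fold change of 0.20 (SE 0.07) missed the threshold, with an edgeR adjusted p = 0.06135.

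Procr (Entrez gene 19124, chromosome 2 from 155751125 to 155755478) encodes the endothelial protein C receptor. The 3 controls had 7.12, 7.15 and 6.63 FPKM and the 3 IL-4 libraries 6.39, 5.86 and 6.79 FPKM. These ranges overlapped, and the log2 fold change of 0.04 (SE 0.09, edgeR adjusted p = 0.7659) was -0.13 with library totals. Its ligand gene Proc, which encodes protein C, was not listed in any library.

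F13a1 (Entrez gene 74145, chromosome 13 from 36867178 to 37050244) encodes the catalytic A subunit of factor XIII and is known from macrophages and platelets. It was at 8.46, 8.85 and 13.72 FPKM in control libraries 1 to 3 and at 7.52, 7.2 and 5.9 FPKM in IL-4 libraries 4 to 6. In FPKM every control was above every IL-4 library, and control library 3 stood highest, whereas the normalized counts of 1070 ± 294 and 804 ± 112 (SD, n = 3 each) overlapped. The log2 fold change of -0.41 (SE 0.19, edgeR adjusted p = 0.128) did not pass the test, and without control library 3 it was -0.17. With library totals it was -0.59 and passed (edgeR adjusted p = 0.03293).

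Control library 3 also had the highest sum of the 19 macrophage markers, 6409 FPKM beside 4917 and 4964 in the other controls, and IL-4 library 6, the lowest in F13a1, had the highest sum of the IL-4 libraries, 2738 FPKM. The single markers were divided there, since 14 of the 19 were highest and 5 lowest in that library among the IL-4 libraries, Ptprc with 8.0 FPKM and Lyz2 with 937 FPKM being examples of the lowest and the highest. The platelet markers summed to 35.65 FPKM in control library 3 and to 23.84 and 29.45 in the other controls, against 11.31 to 15.81 with IL-4. Most of each sum was 1 gene, Pf4, at 18.99, 24.63 and 30.4 FPKM in controls 1 to 3 and 7.61 to 11.66 with IL-4. The next, Gp1bb, was at 3.97 to 4.18 FPKM in controls and 3.29 to 3.8 with IL-4. Of the 4 platelet markers tested, 0 were higher and 1, Pf4, was lower (19.0% and 18.4% of all genes). The part of these cells in the level of F13a1 was not tested.

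**Figure D4:**
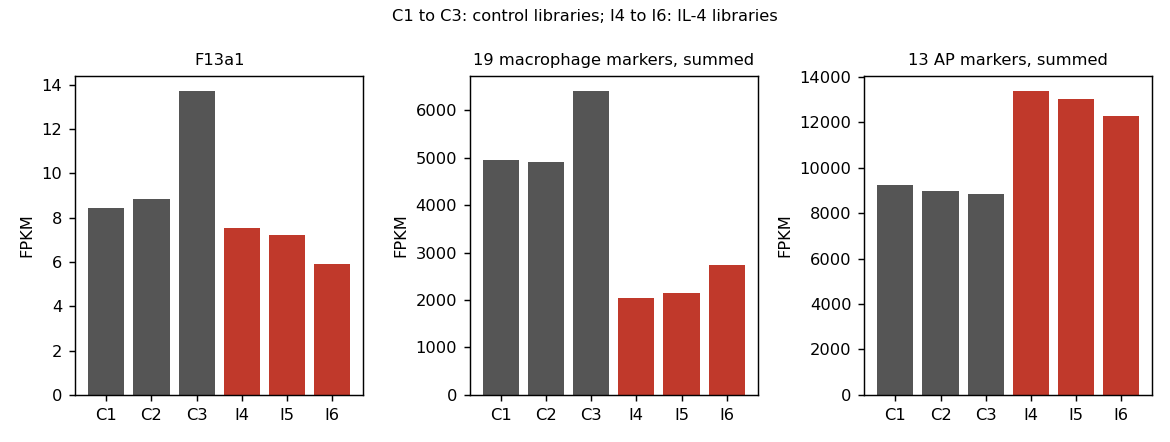
FPKM of F13a1, the sum of 19 macrophage markers and the sum of 13 AP markers in control libraries 1 to 3 (C1 to C3, grey) and IL-4 libraries 4 to 6 (I4 to I6, red). Control library 3 is highest in F13a1 (13.72) and in the macrophage sum (6409), and the AP sum, 88.4% to 91.2% of which is the collagens Col1a1, Col1a2 and Col3a1, is 8822 to 9232 in controls and 12290 to 13370 with IL-4.

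Plau (Entrez gene 18792, chromosome 14 from 20836662 to 20843388) encodes urokinase, the plasminogen activator of the cell surface. Its FPKM were 52.15, 55.64 and 59.38 in controls and 75.49, 75.27 and 76.91 with IL-4. The IL-4 libraries lay close together and above all controls. The normalized count went from 3444 ± 207 to 5292 ± 27 (SD, n = 3 each), a 1.54-fold rise (log2 fold change 0.62, SE 0.06, edgeR adjusted p = 0.0001204). With library totals the log2 fold change was 0.45 and passed (edgeR adjusted p = 0.0007414).

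Plat (Entrez gene 18791, chromosome 8 from 22757722 to 22782848) encodes tissue plasminogen activator, which is most active on fibrin. It was at 36.79, 36.36 and 36.36 FPKM in controls and at 45.95, 45.84 and 45.95 FPKM with IL-4. It varied little within groups, with 2482 ± 28 and 3522 ± 56 normalized counts (SD, n = 3 each). The change was 1.42-fold (log2 fold change 0.50, SE 0.05, edgeR adjusted p = 0.00014). With library totals the log2 fold change was 0.33 and passed (edgeR adjusted p = 0.001027).

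Plaur (Entrez gene 18793, chromosome 7 from 24460937 to 24475970) encodes the urokinase receptor, which anchors urokinase to the membrane. It was at 18.31, 16.57 and 20.39 FPKM in controls and at 20.5, 20.94 and 25.53 FPKM with IL-4. The lowest IL-4 library was only just above the highest control. The log2 fold change of 0.45 (SE 0.10, edgeR adjusted p = 0.00943) came with 720 ± 68 and 984 ± 106 normalized counts (SD, n = 3 each). The call was lost with library totals, where the log2 fold change was 0.28 (edgeR adjusted p = 0.07241), and with limma on FPKM.

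A list of 47 other genes of coagulation, its inhibitors, plasminogen activation and protease-activated receptors was read from the same fit. Of these, 40 were listed, 28 were tested, 15 were higher and 4 were lower with IL-4 (19.0% and 18.4% of all genes), with a median log2 fold change of 0.33. Beyond 2-fold, 10 were higher and 2 were lower, beside 5.77% and 5.26% of all genes. With library totals 12 were higher and 5 lower at any size, where 12.2% and 35.4% of all genes were. The list was chosen with earlier results of these data known, so these counts are no test of it. Proz and Serpinb2, under 10 reads in every control library, passed the filter on low counts only through the IL-4 libraries. F11, F13b, the fibrinogen genes Fga, Fgb and Fgg, Proc and Serpina10 were not listed in any library. F2, which encodes prothrombin, was read once in all 6 libraries, and Plg, which encodes plasminogen, was read 1, 0 and 3 times with IL-4 and not at all in controls, so the transcripts of fibrinogen, prothrombin and plasminogen were at or near the limit of detection.

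Among the coagulation genes, 7 of 10 tested were higher and 1, Kng1, was lower (19.0% and 18.4% of all genes). F5, which encodes factor V, the cofactor of active factor X, was read 14, 14 and 6 times in controls and 246, 267 and 247 times with IL-4. Its log2 fold change of 4.62 (SE 0.21, edgeR adjusted p = 1.808e-06) was the largest on the list, and its level reached 1.15 to 1.25 FPKM. Vwf, which encodes von Willebrand factor, was read 221, 213 and 168 times in controls and 1634, 1641 and 1283 times with IL-4 (log2 fold change 3.08, SE 0.15, edgeR adjusted p = 2.703e-06).

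Vwf is also a marker of endothelium. Of the 12 endothelial markers tested, 3 were higher (Vwf, Flt1 and Tek) and 6 were lower, beside 19.0% and 18.4% of all genes. The sum of the 12 was 21.4 to 22.33 FPKM in controls and 29.72 to 37.32 with IL-4. Vwf itself and Flt1, the 2 markers higher beyond 2-fold, were left out of a second sum after the values had been seen. The other 10 markers summed to 18.19 to 18.62 FPKM in controls and to 12.85 to 13.15 with IL-4. Leaving out the markers that rose most favours a fall, so this second sum decides nothing. Single markers went both ways. Cdh5 was at 3.34 to 3.42 FPKM in controls and 0.81 to 1.14 with IL-4, and Pecam1, which was not called, at 2.22 to 2.52 and 1.56 to 2.04. Flt1 was at 2.54 to 2.95 FPKM in controls and 11.84 to 17.96 with IL-4, and Tek at 2.54 to 3.32 and 4.1 to 4.96. The part of endothelial cells in the level of Vwf was not tested.

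Factors VII and X carry vitamin K-dependent carboxylation, and 3 genes of that modification were on the list. Vkorc1, which regenerates reduced vitamin K, was read 1376, 1244 and 1599 times in controls and 2534, 2481 and 3407 times with IL-4, a log2 fold change of 1.15 (SE 0.13, edgeR adjusted p = 0.0002523). The carboxylase gene Ggcx and Vkorc1l1, named although outside the rule for named genes, also passed, at log2 fold changes of 0.42 and 0.16, the latter smaller than the shift of 0.17 between the scalings and not called by DESeq2 (adjusted p = 0.08218). The groups of Vkorc1 did not overlap, and all 3 genes were well covered in every library.

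Of the genes that act beside thrombin or factor XIII, Fgl2, a fibrinogen-like protein known for cleaving prothrombin, went from 839 ± 50 to 2563 ± 125 normalized counts (SD over 3 libraries each; log2 fold change 1.61, edgeR adjusted p = 1.418e-06). Tgm2, the tissue transglutaminase and a relative of factor XIII, went from 2818 ± 72 to 6720 ± 268 (log2 fold change 1.25, edgeR adjusted p = 1.768e-06). The groups of both genes were separated in every library.

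The list also held inhibitors, anticoagulant proteins and their relatives. Of the 5 such genes tested, 3 were higher (Tfpi2, Proz and Pros1) and 2 lower (Gas6 and Anxa5), beside 19.0% and 18.4% of all genes. Tfpi2, which encodes a Kunitz inhibitor related to Tfpi that also inhibits plasmin, was read 354, 369 and 450 times in controls and 2821, 2716 and 3050 times with IL-4. Its log2 fold change of 3.03 (SE 0.09, edgeR adjusted p = 2.989e-07) compares with 0.13 for Tfpi, and the 2 inhibitor genes thus differed in the size of their change.

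Of 11 tested genes of plasminogen activation, 5 were higher and 1 was lower (19.0% and 18.4% of all genes). Serpinb2, which encodes plasminogen activator inhibitor 2, was read 5, 7 and 2 times in controls and 35, 43 and 36 times with IL-4 (log2 fold change 3.14, SE 0.34, edgeR adjusted p = 0.0002029). The groups were separated in every library, on few reads. A2m, a general protease inhibitor, and Vtn, which encodes the vitronectin that binds the urokinase receptor, were also higher, at log2 fold changes of 1.65 and 1.79 on at most 62 reads in any library.

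Lrp1, the endocytic receptor that clears complexes of activators and inhibitors, was read 97996, 109007 and 78993 times in controls and 109205, 102001 and 62592 times with IL-4. Its groups overlapped (log2 fold change 0.10, SE 0.22, edgeR adjusted p = 0.7725), the sign turned to -0.08 with library totals, and without IL-4 library 6 the value was 0.32 and passed (edgeR adjusted p = 0.04128). Of the protease-activated receptors, 2 were tested and 0 were called, where 19.0% of all genes were called higher and 18.4% lower. F2r, the thrombin receptor, was at 10856 ± 685 and 10527 ± 811 normalized counts (SD over 3 libraries each; log2 fold change -0.04, edgeR adjusted p = 0.6968), and with library totals it was -0.22 and passed.

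**Figure D5:**
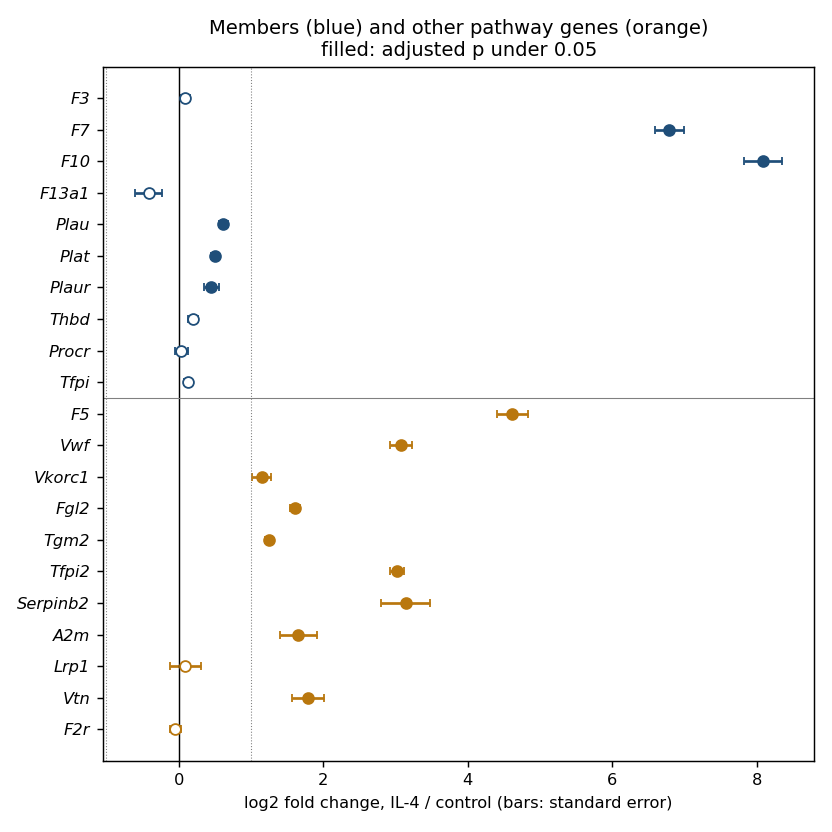
Log2 fold change with IL-4 (horizontal axis, bars are standard errors) of the 10 members (blue) and of the named genes of the wider list (orange), filled where the adjusted p is under 0.05; dotted lines mark 2-fold. F7, F10 and F5 lie furthest to the right, and F3, Thbd, Procr, Tfpi and F13a1 are open.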

How the data were processed

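mRNA-seq libraries of 3 control and 3 IL-4 AP cultures were used. The small RNA files of the other 4 samples hold no values for these genes and were not used. The authors filtered reads with SOAPnuke and quantified genes with Bowtie2 and RSEM. The submitters' processing notes also name HISAT, StringTie and mm10, and versions are not given in the sources used here. The deposited files give raw expected counts per gene and the FPKM that the authors derived by dividing by transcript length and library total. Genes not listed in a library were taken as 0, and 1 row naming no gene (0.00016% of counts) was left out.

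Expected counts were rounded, filtered (filterByExpr, minimum count 10, minimum total 15), scaled by TMM and tested with edgeR 4.0.16 (quasi-likelihood, R 4.3.3) with Benjamini-Hochberg adjustment over 14009 genes. A gene was called at an adjusted p under 0.05, and separately also beyond a log2 fold change of 1. The common biological coefficient of variation was 0.094. A normalized count is a count over its library's scaled size, times the mean scaled size. Samples were grouped by the treatment labels. Alternatives were DESeq2 1.42.0, other scalings, no filter, limma 3.58.1 on FPKM and leaving out each library. The ratio of F3 to Tfpi was compared by an exact permutation test with scipy 1.17.1. Locations, neighbours and upstream windows came from RefSeq on GRCm38.p6.

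All 10 members were named. A further gene of the wider list is counted but not reported here. Of the wider list, genes called beyond 2-fold with a mean of at least 20 normalized counts were named, as were Plg, Fgl2, F2r, Serpinb2, Proc, F2 and Lrp1, and for F7 and F10 the 3 genes with the highest correlation among genes with a mean of at least 100. Other genes named, and those left out of marker sums, were chosen after their values were seen. Members, lists and tests were chosen with earlier results of these data known. The PU.1, HNF4 and CCAAT patterns were added after the values, and the HNF4 pattern after the sequences, had been seen.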

Additional observations from a re-analysis of the deposited data

How the results depend on the processing

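No paired analysis was possible because the control libraries carry the numbers 1 to 3 and the IL-4 libraries 4 to 6. Of the counts and group ratios, 244 values under alternatives stayed near the main count or kept the sign of the main ratio, and 12 moved. A count that stayed near could still differ, as for genes higher on the wider list, 15 in the main fit and 18 without IL-4 library 6. Of the values of single genes, 237 kept sign and call, 8 gained a call, 3 lost one and 16 turned sign. F7, F10, Plau and Plat kept their calls under all 12 alternatives. Most other changes came with library totals or limma on FPKM, which leave out TMM scaling. The members called lower numbered 1 (F13a1) with library totals, with limma on log2(FPKM + 1) and with limma on log2(FPKM + 0.1), at log2 fold changes of -0.59, -0.50 and -0.56. In the same order, Plaur was at 0.28, 0.26 and 0.27 and not called, F2r was at -0.22, -0.22 and -0.22 and called, F3 was at -0.0763, -0.0801 and -0.0802, Procr at -0.13, -0.12 and -0.13, Tfpi at -0.0397, -0.0117 and -0.012, and Lrp1 at -0.0812, -0.110 and -0.111. With limma on log2(FPKM + 1), the wider list had 5 genes higher and 1 lower beyond 2-fold, and 1 endothelial marker was lower beyond 2-fold. Over all 14009 genes, 348 were higher and 352 lower beyond 2-fold in that setting. Macrophage markers called higher numbered 2 with DESeq2 and with no filter.

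When 1 library was left out, members called higher ranged from 5 to 6, where Thbd was added without IL-4 library 6 (0.23, edgeR adjusted p = 0.02008). Macrophage markers called higher ranged from 1 to 2 and endothelial markers lower beyond 2-fold from 3 to 5, with 3 without IL-4 library 6 or control library 1. Procr ranged from -0.0027 to 0.0956, with the turn without control library 3, Lrp1 from -0.0549 to 0.3216, with -0.0549 without IL-4 library 4 and -0.0322 without control library 3, and F2r from -0.0921 to 0.0211, with the turn without IL-4 library 6. For F13a1, the range was -0.54 to -0.17. The cause of these changes was not tested. Under 10 reads per control library limit the precision of F7, F10 and Serpinb2.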
